A study of Mus musculus with 12 samples.

Results

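Colony-stimulating factors drive the production and survival of neutrophils, monocytes and macrophages, and they act through receptors on the blood cells themselves. The 8 genes described here are 1 such factor, Csf1, and 7 receptor chains, Csf1r, Csf2ra, Csf2rb, Csf2rb2, Csf3r, Il3ra and Epor. They were chosen by name and matched from symbol to gene identifier, 8 of the 55421 genes counted. Each gene was described by its read counts in 12 RNA-seq libraries of sorted mouse bone marrow cells and compared across 4 groups.

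Csf1 signals through the receptor tyrosine kinase Csf1r. The other chains belong to the cytokine receptor family, which has no kinase of its own and signals through JAK kinases and STAT factors. Csf2ra and Il3ra are the ligand-binding alpha chains for GM-CSF and IL-3, and each pairs with the common beta chain, Csf2rb. Mice carry a further beta chain, Csf2rb2, that serves the IL-3 receptor. Csf3r binds G-CSF and is a receptor of the neutrophil lineage, and Epor binds erythropoietin and is needed by erythroid precursors.

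The mice were C57BL/6J animals aged 20 weeks, with 3 libraries in each group and 1 mouse per library. Controls were naive. The hypertension group received angiotensin II chronically from an implanted osmotic pump. The atherosclerosis group carried the Apoe tm1Unc knockout allele and ate a western diet, so genotype and diet differed from the controls together and cannot be told apart. By its labels the MI group was taken 2 days after the infarction, while the study's text gives another interval, and the infarction was produced by permanent ligation of a coronary artery. Libraries are named by the replicate number in their labels, 2, 3 or 4.

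Total counts ran from 17007088 to 25136936 per library, with a median of 19419915. Apoe itself fitted the labels: the 3 atherosclerosis libraries held 124 to 290 Apoe counts and the other 9 held 8997 to 27226. The cells were depleted of lineage-positive cells with magnetic beads (Ter119, CD11b and Ly6G among others) and then sorted, with a gate meant to retain endothelial cells (CD45-, Ter119-, CD41-, CD31 high, Sca-1+). All 18 endothelial marker genes were detected in all 12 libraries, but at low levels. Their summed level ran from 182 to 325 CPM, a measure relative to all reads of the library, against 35312 to 92911 CPM for 13 neutrophil markers, 10349 to 42925 CPM for 11 erythroid markers and 3730 to 8938 CPM for 9 monocyte markers. The sum of 7 eosinophil markers ran from 6312 to 15160 CPM and that of 7 basophil and mast cell markers from 984 to 7294 CPM. The levels below are therefore those of a mixture of marrow cells, in which fewer cells of a type and less RNA per cell cannot be told apart.

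All 8 genes passed the filter on low counts, which 15999 genes passed. None of the 8 was called at an adjusted p under 0.05 in any of the 3 disease groups against the controls (edgeR's quasi-likelihood test, Benjamini-Hochberg adjustment over all genes tested). The background was low too, with 0% of genes called in hypertension, 0.144% in atherosclerosis and 0% in MI. At an unadjusted p under 0.05, 0 of the 8 were reached in each group, while 594 genes (3.71%) were reached in hypertension, 955 (5.97%) in atherosclerosis and 448 (2.8%) in MI. The likelihood-ratio test of edgeR and DESeq2 likewise called 0 of the 8 in each group, while each called 0 genes in hypertension, 81 in atherosclerosis and 1 in MI.

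No member separated from the controls either. For each of the 8 genes the range of each disease group overlapped that of the control libraries, while 16.8% of all genes tested did not overlap in hypertension, 9.51% in atherosclerosis and 8.86% in MI. The median log2 fold change of the 8 was -0.13 in hypertension, 0.13 in atherosclerosis and -0.25 in MI, beside -0.01, 0.01 and 0.00 over all genes tested. The 3 comparisons share their control libraries.

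**Figure D1:**
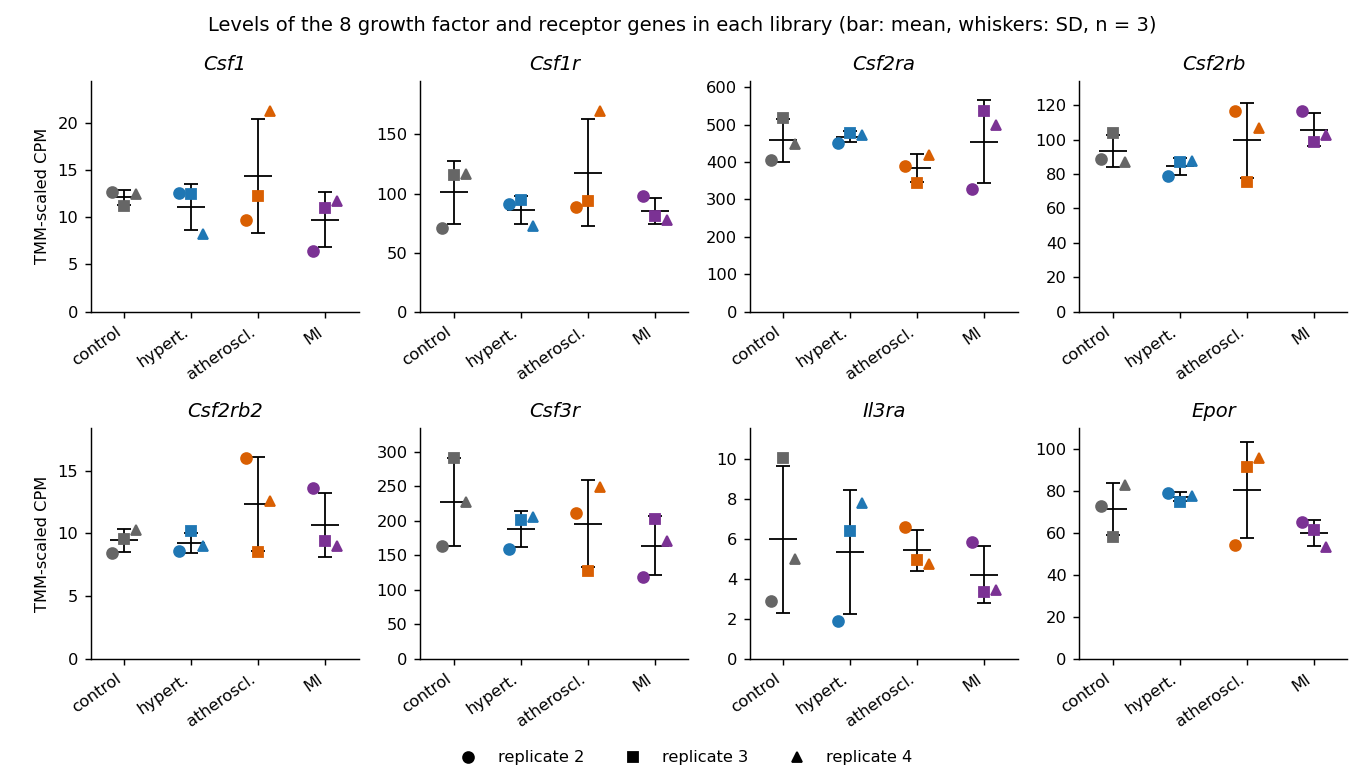
Level of each of the 8 genes in CPM scaled by TMM factors (y axis, from 0) in the 3 libraries of each group (x axis), with the group mean as a bar and the SD as whiskers. The 3 disease groups overlap the controls in all 8 panels, and the single highest points of Csf1, Csf1r and Epor are the atherosclerosis library 4.

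Csf1, macrophage colony-stimulating factor, lies at chr3:107741048-107760469 on the minus strand (GRCm38). In CPM scaled by TMM factors, the scale of all levels below unless stated, it was at 12.7, 11.2 and 12.5 in control libraries 2, 3 and 4. Hypertension gave 12.5, 12.5 and 8.26, atherosclerosis 9.74, 12.2 and 21.2, and MI 6.40, 11.01 and 11.8. Atherosclerosis 4 was the highest of the 12 libraries and MI 2 the lowest, a 3.32-fold span, and the other 10 lay between 8.26 and 12.7.

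The atherosclerosis estimate for Csf1, a log2 fold change of 0.25 with a 95% interval from -0.39 to 0.89, turned to -0.14 without atherosclerosis 4. In MI it was -0.31, from -0.96 to 0.33, and in hypertension -0.12, from -0.77 to 0.52. The lowest adjusted p of the 3 was 0.939 in edgeR's quasi-likelihood test. The direct comparison of MI with atherosclerosis gave Csf1 a log2 difference of -0.57, from -1.21 to 0.08, with an adjusted p of 0.445 in the same fit, where 0.269% of genes were called. That difference was -0.17 without atherosclerosis 4 and -0.34 without MI 2.

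The other ligands of these receptors were scarce in the same libraries. Csf2, which encodes GM-CSF, had 55 counts over all 12 libraries, between 1 and 9 in each, and Csf3, which encodes G-CSF, had 12 counts, between 0 and 5 in each. Il3, Il5 and Epo had 0 counts in every library. A count of 0 allows up to 3 counts per library, between 0.119 and 0.176 CPM at these depths, and covers counting error only. Thpo, which encodes thrombopoietin, had 2 counts in all.

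Of the other ligand genes, Il34, Kitl and Flt3l passed the filter. Il34, the other ligand of Csf1r, had between 9 and 55 counts per library, and its median level per length was 0.524 CPM per kb against 2.27 for Csf1. Kitl, the ligand of Kit, and Flt3l, the ligand of Flt3, had medians of 2.78 and 1.34 CPM per kb. None of Il34, Kitl and Flt3l was called in any disease group.

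Csf1r is the receptor for both Csf1 and Il34 and is carried by monocytes, macrophages and osteoclasts. The gene lies at chr18:61100598-61132149 on the plus strand, and 873 of its exonic bases overlap exons of Hmgxb3 on the opposite strand. The libraries kept strand, but the strand that was counted is not given in the sources used here, so reads of that overlap are uncertain. Of the distinct 50-base stretches in its annotated transcripts, 824 of 5776 (14.3%) also occur in Hmgxb3 transcripts when either strand is allowed.

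Csf1r stood at 70.5, 116 and 116 CPM in the controls and at 91.0, 94.8 and 72.4 CPM in hypertension. It stood at 88.8, 93.8 and 169.8 CPM in atherosclerosis and at 97.8, 80.6 and 77.3 CPM in MI. Atherosclerosis 4 was again the highest library, while the other 2 atherosclerosis libraries lay within the control range. The log2 fold change in atherosclerosis was 0.22, from -0.33 to 0.77, and it was -0.14 without atherosclerosis 4. It was -0.23 in hypertension, from -0.78 to 0.33, and -0.24 in MI, from -0.80 to 0.31.

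Macrophage markers were higher in the atherosclerosis libraries than in the control libraries. Such marker sums were compared for every list and disease group without adjustment. Other lists also gave an exact permutation p of 0.1. In hypertension these were the neutrophil, monocyte, stem and progenitor, and basophil and mast cell markers. In atherosclerosis they were the stem and progenitor and the plasmacytoid dendritic cell markers, and in MI the plasmacytoid dendritic cell and B cell markers. The summed level of 11 macrophage markers was 923 to 1101 CPM in the 3 atherosclerosis libraries and 608 to 737 CPM in the 3 controls, without overlap, and the exact two-sided permutation p was 0.1, the smallest that 3 against 3 libraries can give. The group mean of 9 monocyte markers was 5836 CPM in atherosclerosis and 7942 CPM in the controls (exact permutation p = 0.2), and that of 6 osteoclast markers was 177 and 166 CPM (exact permutation p = 0.6). In hypertension the monocyte sum ran from 4708 to 6491 CPM, below the 3 controls at 6788 to 8938 CPM. The part of these cells in the level of Csf1r was not tested. Over all 12 libraries, the gene list whose pattern came closest to Csf1r included a macrophage marker, Adgre1, which encodes the antigen F4/80. Its Pearson r with Csf1r was 0.94, after Krt80 and Plekho2 at 0.95 each.

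Csf1r RNA exceeded Csf1 RNA per length in every library. The ratio ran from 5.09 to 13.96 with a median of 7.17, and MI 2 gave the highest ratio, since it held the lowest Csf1 level with a Csf1r level of 97.8 CPM. The group means of this ratio lay between 7.20 and 8.89.

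Csf2ra, the alpha chain that gives the GM-CSF receptor its specificity, was the most abundant of the 8. It lies at chr19:61223957-61228429 on the minus strand. Its median level was 157 CPM per kb of exon, above 98.1% of the genes tested. In CPM it was at 406, 519 and 449 in the controls and at 451, 478 and 472 in hypertension. It was at 389, 343 and 419.7 CPM in atherosclerosis and at 328, 536 and 498 CPM in MI.

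The MI group held both the lowest and the highest Csf2ra library of the 12, MI 2 and MI 3. The 3 hypertension libraries were the closest together, with an SD of 14.3 CPM on a mean of 467 CPM. In atherosclerosis the log2 fold change was -0.25, with a 95% interval from -0.66 to 0.15 and an adjusted p of 0.893 (edgeR's quasi-likelihood test). It was 0.03 in hypertension, from -0.37 to 0.43, and -0.01 in MI, from -0.42 to 0.39, where it turned to 0.18 without MI 2.

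The common beta chain, Csf2rb, carries the signal of the GM-CSF, IL-3 and IL-5 receptors. Csf2rb2, the further beta chain of the IL-3 receptor, sits beside it on chromosome 15 in opposite orientation. Csf2rb lies at chr15:78325752-78353847 on the plus strand and Csf2rb2 at chr15:78282507-78305721 on the minus strand. Their longest coding sequences in GENCODE M21, 2691 and 2637 bases, could be aligned over 2631 positions with 95.2% identity and 126 differing bases. Reads of 50 bases can therefore fall where both genes read alike. Of the distinct 50-base stretches in their transcripts, 892 are shared between them, which is 12.3% of those of Csf2rb and 18.4% of those of Csf2rb2.

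Both kinds of stretch are shown, since they decide which reads could be assigned to 1 gene. The longest coding stretch that both genes share within an exon is 242 bases long, in exon 14 of each, at chr15:78348577-78348818 on the plus strand for Csf2rb and at chr15:78284630-78284871 on the minus strand for Csf2rb2. A read that starts at any of 193 positions in it cannot be told apart by its letters.
Csf2rb and Csf2rb2, shared stretch: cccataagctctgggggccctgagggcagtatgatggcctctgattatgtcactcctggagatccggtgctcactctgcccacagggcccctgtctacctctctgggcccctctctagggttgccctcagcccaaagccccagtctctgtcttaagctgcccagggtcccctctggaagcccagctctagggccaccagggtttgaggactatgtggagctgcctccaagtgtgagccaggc
The gap-free window of 120 coding bases within an exon with the most differences lies in exon 4 of each gene, at chr15:78338867-78338986 on the plus strand for Csf2rb and at chr15:78294345-78294464 on the minus strand for Csf2rb2. It holds 16 differences, given in capitals in GRCm38 reference sequence written 5′ to 3′ along each gene.
Csf2rb: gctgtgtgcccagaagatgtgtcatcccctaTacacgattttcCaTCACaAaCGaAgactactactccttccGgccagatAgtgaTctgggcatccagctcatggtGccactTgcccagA
Csf2rb2: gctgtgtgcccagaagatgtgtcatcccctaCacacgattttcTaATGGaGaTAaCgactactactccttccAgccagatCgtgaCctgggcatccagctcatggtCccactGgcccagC
The counting by STAR leaves out reads that map to more than a single place, so reads from stretches that both genes share would be missing from both counts.

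Csf2rb was at 88.7, 104 and 87.0 CPM in the controls and at 78.9, 86.8 and 87.8 CPM in hypertension. It was at 117, 75.2 and 107 CPM in atherosclerosis and at 117, 98.5 and 102 CPM in MI. The highest library of the 12 was MI 2 and the lowest atherosclerosis 3, a span of 1.55-fold, the narrowest of the 8 genes. The log2 fold change was 0.18 in MI, from -0.18 to 0.54, and -0.14 in hypertension, from -0.51 to 0.22. It was 0.09 in atherosclerosis, from -0.27 to 0.46, and -0.02 there without atherosclerosis 2.

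Csf2rb2 stood at 8.46, 9.58 and 10.3 CPM in the controls, at 8.58, 10.2 and 8.96 in hypertension, at 16.01, 8.52 and 12.6 in atherosclerosis and at 13.6, 9.37 and 9.04 in MI. Atherosclerosis 2 was the highest library and atherosclerosis 3 lay within the control range. Its log2 fold change of 0.39 in atherosclerosis, from -0.12 to 0.90, was the largest upward estimate among the 8 genes in the 3 comparisons with controls, and its adjusted p was 0.873 (edgeR's quasi-likelihood test). It was 0.17 without atherosclerosis 2 and 0.60 without atherosclerosis 3.

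The split between the 2 beta chain genes does not depend on library scaling. Csf2rb2 took 8.71%, 8.42% and 10.6% of the counts on both genes in the controls, 9.80%, 10.48% and 9.27% in hypertension, 12.1%, 10.2% and 10.6% in atherosclerosis and 10.47%, 8.69% and 8.10% in MI. The exact Clopper-Pearson 95% interval was 10.9% to 13.3% for the highest library, atherosclerosis 2, and 6.92% to 9.41% for the lowest, MI 4. The group means were 9.24% ± 1.18 in controls, 9.85% ± 0.61 in hypertension, 10.9% ± 1.01 in atherosclerosis and 9.09% ± 1.23 in MI (SD, n = 3). The range of each disease group overlapped that of the controls. Against the controls, an exact two-sided permutation test gave p = 0.5 for hypertension, 0.3 for atherosclerosis and 0.7 for MI. The smallest p that 3 against 3 libraries can give is 0.1, so this test cannot decide whether the shares differ.

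Over the 12 libraries, Csf2rb and Csf2rb2 were the pair of members with the most similar patterns, at a Pearson r of 0.78 among 28 pairs, and they share part of their sequence. Csf2rb and Epor were the least similar pair, at -0.61. These are descriptions of 12 libraries that differ in their mixture of cells.

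The balance of alpha to beta chain RNA was then set side by side within each library, as CPM per kb of Csf2ra over the sum of Csf2rb and Csf2rb2. The sum includes Csf2rb2, although that chain serves the IL-3 receptor and Csf2ra the GM-CSF receptor. This ratio was 10.1, 11.1 and 11.1 in the controls and 12.4, 11.8 and 11.8 in hypertension, where all 3 libraries lay above the controls. It was 6.98, 9.86 and 8.42 in atherosclerosis, where all 3 lay below. The MI group was split, with 6.04 in MI 2 and 12.04 and 10.9 in MI 3 and MI 4. The exact two-sided permutation p was 0.1 in hypertension and in atherosclerosis, the smallest that 3 against 3 can give, and 0.5 after adjustment over 15 comparisons of 5 such ratios. Among the 15 comparisons, Csf2ra over Csf3r in MI also did not overlap the controls, at 3.318 to 3.685 against 2.243 to 3.134. Its exact permutation p was likewise 0.1. The ratio of alpha to beta chains was chosen after the values of its genes were seen. Since the exact p cannot fall below 0.1, no comparison could pass 0.05, so this test cannot decide whether the ratios differ.

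**Figure D2:**
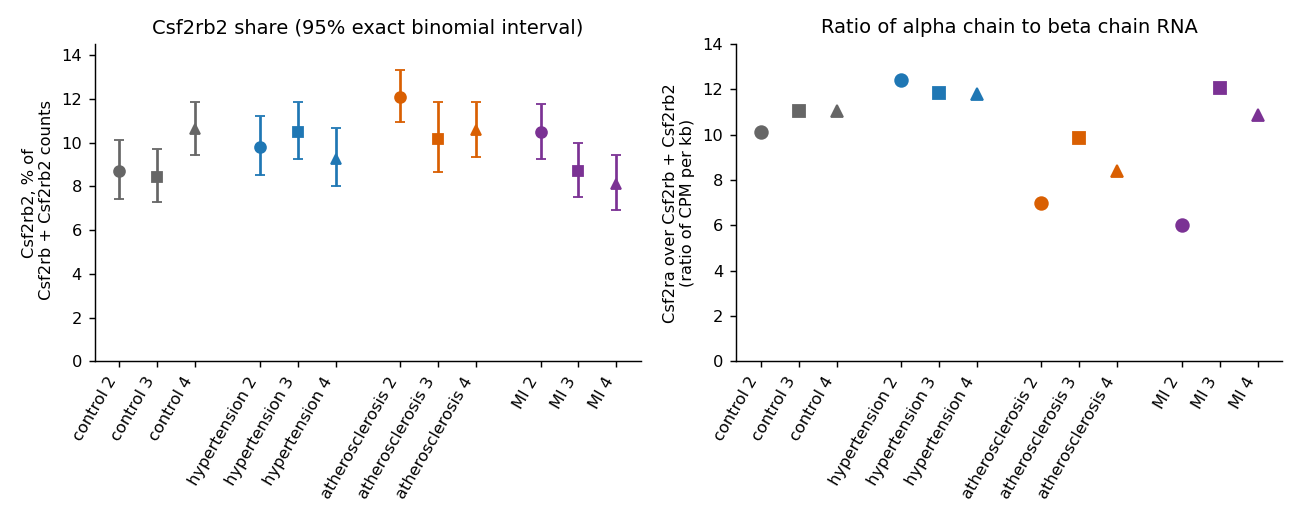
Left, Csf2rb2 counts as a percent of Csf2rb and Csf2rb2 counts in each of the 12 libraries (y axis, from 0) with 95% exact binomial intervals. Right, ratio of Csf2ra to the sum of both beta chain genes in CPM per kb in the same libraries. The shares lie between 8.10% and 12.1%, and the ratios of MI 2 and atherosclerosis 2, at 6.04 and 6.98, are the lowest.

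Il3ra, the alpha chain of the IL-3 receptor, was the scarcest member, with 41 to 185 counts per library. It lies at chr14:14346275-14356011 on the plus strand, and 46 of its exonic bases overlap the antisense gene Gm48860. The controls gave 2.86, 10.02 and 5.004 CPM, hypertension 1.86, 6.39 and 7.76, atherosclerosis 6.58, 4.93 and 4.74, and MI 5.85, 3.33 and 3.42. The control libraries alone covered the range from 2.86 to 10.02 CPM, and 1 library outside it, hypertension 2, was lower. The coefficient of variation over the 12 libraries, 43.6%, was the largest of the 8.

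The intervals for Il3ra were correspondingly wide. The log2 fold change was -0.50 in MI, from -1.58 to 0.58, and 0.09 when control 3 was left out. It was -0.16 in hypertension, from -1.22 to 0.91, and -0.13 in atherosclerosis, from -1.20 to 0.93, and both turned upward without control 3, to 0.43 and 0.45. Per length, Il3ra was at 0.0496 to 0.207 of the summed beta chains, with a median of 0.109, and Csf2ra exceeded it by a median factor of 84.5.

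Csf3r, the G-CSF receptor, lies at chr4:126024550-126044440 on the plus strand. Part of its annotated transcripts is repeated elsewhere, with 395 of 3676 distinct 50-base stretches (10.7%) also found in transcripts of other genes. Csf3r was at 163, 291 and 228 CPM in the controls, at 159, 201 and 205 in hypertension, at 212, 127 and 249 in atherosclerosis and at 119, 203 and 170.0 in MI. Control 3 was the highest library and MI 2 the lowest, a span of 2.45-fold, and the controls alone ran from 163 to 291 CPM.

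The MI estimate for Csf3r, a log2 fold change of -0.47 with a 95% interval from -1.06 to 0.12, had the lowest unadjusted p of the 8 genes in the 3 comparisons with controls, and its adjusted p was 1 (edgeR's quasi-likelihood test). It was -0.26 without control 3 and -0.28 without MI 2. The log2 fold change was -0.27 in hypertension, from -0.86 to 0.32, and -0.21 in atherosclerosis, from -0.81 to 0.38. In atherosclerosis it reached 0.02 without atherosclerosis 3 and 0.00 without control 3.

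The levels of neutrophil markers are given beside Csf3r. The summed level of 13 neutrophil markers, most of them granule genes, was 65635 to 92911 CPM in MI and 60973 to 80293 CPM in the controls, with an exact permutation p of 0.5. In hypertension it was 38581 to 55147 CPM, below all 3 controls at the smallest possible p of 0.1. MI 2, the library with the least Csf3r, had the highest neutrophil marker sum, 92911 CPM. The part of these cells in the level of Csf3r was not tested.

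Epor, the erythropoietin receptor, lies at chr9:21958897-21963506 on the minus strand. It was at 73.1, 58.0 and 82.8 CPM in the controls and at 79.4, 75.1 and 77.6 CPM in hypertension. It was at 54.2, 91.5 and 95.8 CPM in atherosclerosis and at 65.5, 61.3 and 53.3 CPM in MI. Atherosclerosis 3 and 4 were the highest libraries and atherosclerosis 2 lay below every control. Among these 3 libraries the summed level of erythroid markers was also lowest in atherosclerosis 2, at 10349 CPM. It was 42925 and 29458 CPM in atherosclerosis 3 and 4, while Epor was higher in atherosclerosis 4. In other groups the sum and Epor did not always go together. MI 2 had a sum of 29648 CPM with Epor at 65.5 CPM. Control 2 had a sum of 28943 CPM and control 4 of 23192 CPM, with Epor at 73.1 and 82.8 CPM. The part of erythroid cells in the level of Epor was not tested.

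The log2 fold change of Epor was 0.17 in atherosclerosis, from -0.27 to 0.61, 0.12 in hypertension, from -0.32 to 0.56, and -0.25 in MI, from -0.69 to 0.19. The direct comparison of MI with atherosclerosis gave Epor a log2 difference of -0.42, from -0.86 to 0.02, the smallest unadjusted p of the 8 genes in any of the 6 comparisons, 0.0587, and an adjusted p of 0.412 (edgeR's quasi-likelihood test). Without atherosclerosis 2 it was -0.65, with an adjusted p of 0.108, the lowest that any of 672 refits gave for the 8 genes, and without atherosclerosis 4 it was -0.28. None of those refits called a member.

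**Figure D3:**
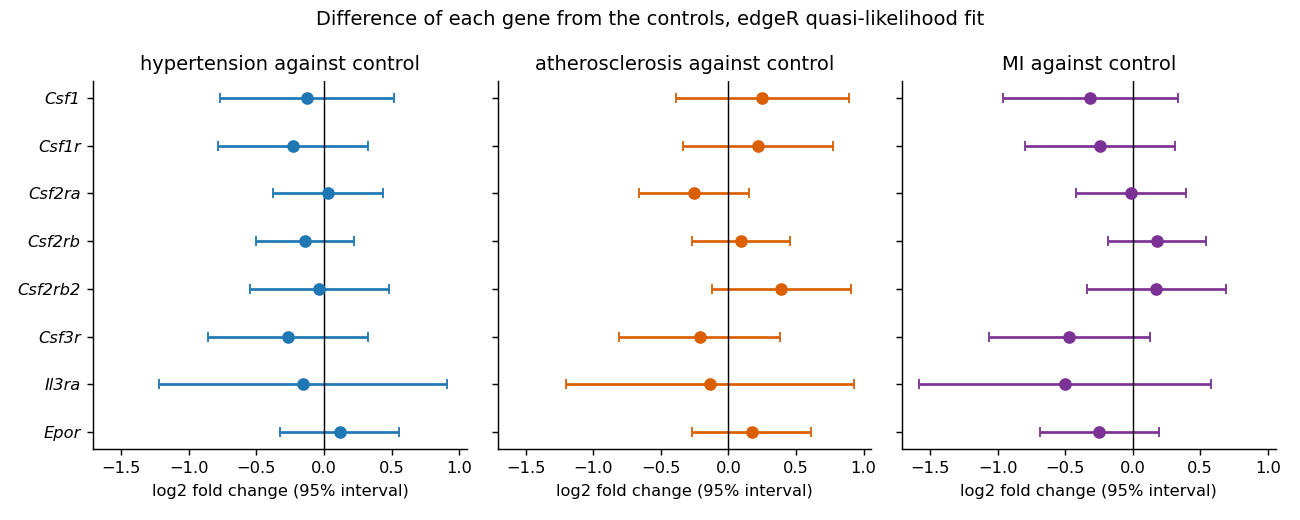
Log2 fold change of the 8 genes (x axis) against the controls in hypertension, atherosclerosis and MI, from the edgeR quasi-likelihood fit over all 12 libraries, with 95% intervals as bars. All 24 intervals include 0, and those of Il3ra are the widest.

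The direct comparisons between disease groups gave the same counts for the members. None of the 8 was called in atherosclerosis against hypertension, where 0.0625% of genes were called, in MI against hypertension, where 0% were, or in MI against atherosclerosis, and none reached an unadjusted p under 0.05, while 5.94%, 8.41% and 12.7% of all genes tested did, in the same order. Csf1r was 0.45 higher on the log2 scale in atherosclerosis than in hypertension, from -0.11 to 1.00, with an adjusted p of 0.87. Csf2rb2 was 0.43 higher in the same comparison, from -0.09 to 0.94, with an adjusted p of 0.87, both by edgeR's quasi-likelihood test. These differences were 0.080 for Csf1r without atherosclerosis 4 and 0.20 for Csf2rb2 without atherosclerosis 2.

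Per length, the order of the 8 genes was led by receptors. After Csf2ra at 157 CPM per kb came Csf3r at 56.0, Epor at 37.2, Csf1r at 16.004 and Csf2rb at 12.9. Csf1 at 2.27, Csf2rb2 at 2.00 and Il3ra at 1.67 CPM per kb closed it, all medians over the 12 libraries. Csf2ra exceeded Csf3r in 12 of 12 libraries, by 2.12-fold to 3.68-fold, and Csf2rb exceeded Csf1 in 12 of 12, by 3.66-fold to 13.2-fold.

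Elsewhere neighbours in that order overlapped. Csf3r exceeded Epor in 10 of 12 libraries, Csf1r exceeded Csf2rb in 10 of 12, Csf1 exceeded Csf2rb2 in 9 of 12 and Csf2rb2 exceeded Il3ra in 9 of 12. Levels per length were not corrected for shared stretches, such as the 18.4% of those of Csf2rb2 that Csf2rb also holds. The effect on this order was not tested. Epor exceeded Csf1r in 12 of 12 libraries although their ranges over the libraries met. Il5ra, the alpha chain for IL-5 and not a member, was at 3.21 CPM per kb. The receptor tyrosine kinases Kit and Flt3 were at 4.33 and 2.41 CPM per kb.

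**Figure D4:**
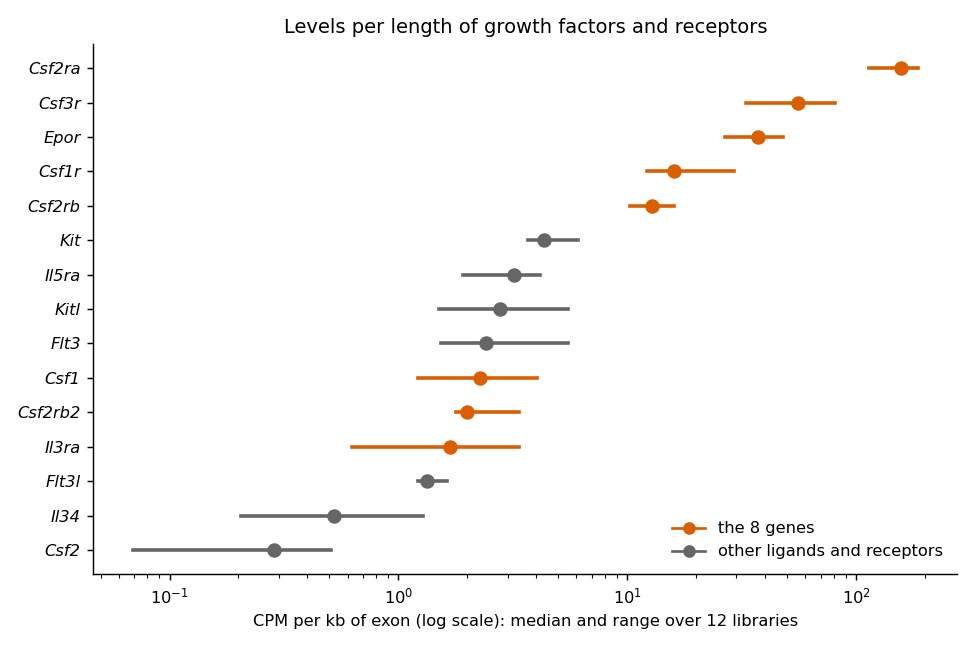
Level per length of the 8 genes and of 7 other growth factors and receptors detected in every library, in CPM per kb of exon on a log axis, as the median (point) and range (line) over 12 libraries. Csf2ra lies apart at the top at 157 CPM per kb, and the medians of Csf1, Csf2rb2 and Il3ra lie between 1.67 and 2.27 CPM per kb.

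Each member was matched with the genes whose log2 CPM followed it most closely over the 12 libraries, among 10152 genes with a mean of at least 5 CPM. Epor was closest to Prnp (r = 0.95, Spearman's rho = 0.97), Tspan33 (r = 0.95) and Slc43a1 (r = 0.94). Csf3r was closest to Myadm (r = 0.95, rho = 0.97), Nedd4l and Sh2d3c (r = 0.94 each). Csf2ra was closest to Tmem50b (r = 0.95), Chil1, a gene of neutrophil granules, and Hacd2 (r = 0.91 each).

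For Csf2rb, Csf2rb2, Csf1 and Il3ra the closest patterns were looser. Csf2rb was closest to Pag1 (r = 0.89), Stxbp5 (r = 0.85) and Scamp1 (r = 0.84), and Csf2rb2 to Coro7, Tcf25 (r = 0.90 each) and Mtmr3 (r = 0.89). Csf1 was closest to Mettl15, Gpr171 (r = 0.90 each) and Man1a (r = 0.89), but the rank correlation with Gpr171 was 0.57. Il3ra had the weakest best match, Max (r = 0.86), followed by Kdelr1 and Klf16 (r = 0.85 each). These genes were picked as the highest of 10152, and the points share library, depth and cell mixture, so the values are descriptions without a test.

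The pathway around the receptors was read from a list of 55 other ligands, receptors, signalling genes and transcription factors, of which 49 passed the filter. In hypertension and MI none of the 49 was called, and in atherosclerosis 1 was, Gata2. At an unadjusted p under 0.05, the 49 gave 5 in hypertension (10.2%), 4 in atherosclerosis (8.16%) and 1 in MI (2.04%), beside the 3.71%, 5.97% and 2.8% of all genes tested. Gata2, a transcription factor of stem and progenitor cells, mast cells and basophils, was at 20.2, 18.4 and 22.1 CPM in the controls and at 35.05, 43.99 and 46.6 CPM in atherosclerosis, without overlap.

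Gata2 rose by a log2 fold change of 1.05 in atherosclerosis, with a 95% interval from 0.68 to 1.41 and an adjusted p of 0.0342, and it was lower in MI than in atherosclerosis by a log2 difference of -0.92, with an adjusted p of 0.041 (both edgeR's quasi-likelihood test). MI stood at 18.1, 22.3 and 25.8 CPM and hypertension at 26.5, 25.4 and 30.9 CPM, where the log2 fold change was 0.45 and the adjusted p 0.951. With 1 of the 12 libraries left out in turn, the call against the controls was kept in 3 of 12 fits, those without atherosclerosis 2, MI 2 or MI 4, and the call of MI against atherosclerosis in 1 of 12, the fit without atherosclerosis 2. With only the 2 groups compared in the fit neither call was made, at adjusted p-values of 0.206 and 0.357 (edgeR's quasi-likelihood test). Gata2 also belongs to the list of 7 basophil and mast cell markers. Their summed level was 5239 ± 2517 CPM in atherosclerosis and 2384 ± 575 CPM in the controls (SD, n = 3, exact permutation p = 0.2). By library the sum was 7294, 5993 and 2431 CPM in atherosclerosis 2, 3 and 4, the reverse of the order of Gata2. The control libraries ran from 1873.5 to 3006.5 CPM. A single marker had a median of 2844 CPM over the 12 libraries, against 3001 CPM for the sum. The part of these cells in Gata2 was not tested. The summed level of 7 stem and progenitor markers was 146 to 186 CPM in the 3 atherosclerosis libraries and 119.6 to 128 CPM in the 3 controls, without overlap (exact permutation p = 0.1, the smallest possible). In hypertension Gata2 also lay above the 3 controls, where 16.8% of all genes tested did not overlap. The stem and progenitor sum there was 109.25 to 118.58 CPM, below all 3 controls (exact permutation p = 0.1). The basophil and mast cell sum there was 3393.9 to 4409.5 CPM, above all 3 controls (exact permutation p = 0.1). The part of stem and progenitor cells in Gata2 was not tested either.

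Of the 30 signalling genes none was called in any comparison in the fit with the filter on low counts. In the fit without that filter, Bcl2l1 was called in hypertension (adjusted p = 3.65e-06) and atherosclerosis (0.000116) and Cish in MI (1.25e-07), each also in direct comparisons, and Socs3 in atherosclerosis and in MI against hypertension (edgeR's quasi-likelihood test). That fit called 170 genes in hypertension, 432 in atherosclerosis and 130 in MI against control, beside 0, 23 and 0 with the filter. Bcl2l1, which encodes the survival protein BCL-XL, gave the largest estimates in hypertension and atherosclerosis, log2 fold changes of 1.26 and 1.08 with adjusted p-values of 0.951 and 0.76 (edgeR's quasi-likelihood test). The libraries behind them were uneven, with 943 CPM in hypertension 4 and 957 CPM in atherosclerosis 2 against 299 to 407 CPM in the other 4 libraries of these groups and 234 to 256 CPM in the controls. Cish, a STAT5-induced inhibitor of cytokine receptor signalling, gave 1.71 in MI with an adjusted p of 1. That estimate rests on MI 2, where Cish was at 43.7 CPM against 5.65 to 9.90 CPM in the other 11 libraries. MI 2 was also the lowest library for Csf1, Csf2ra and Csf3r and the highest for Csf2rb.

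**Figure D5:**
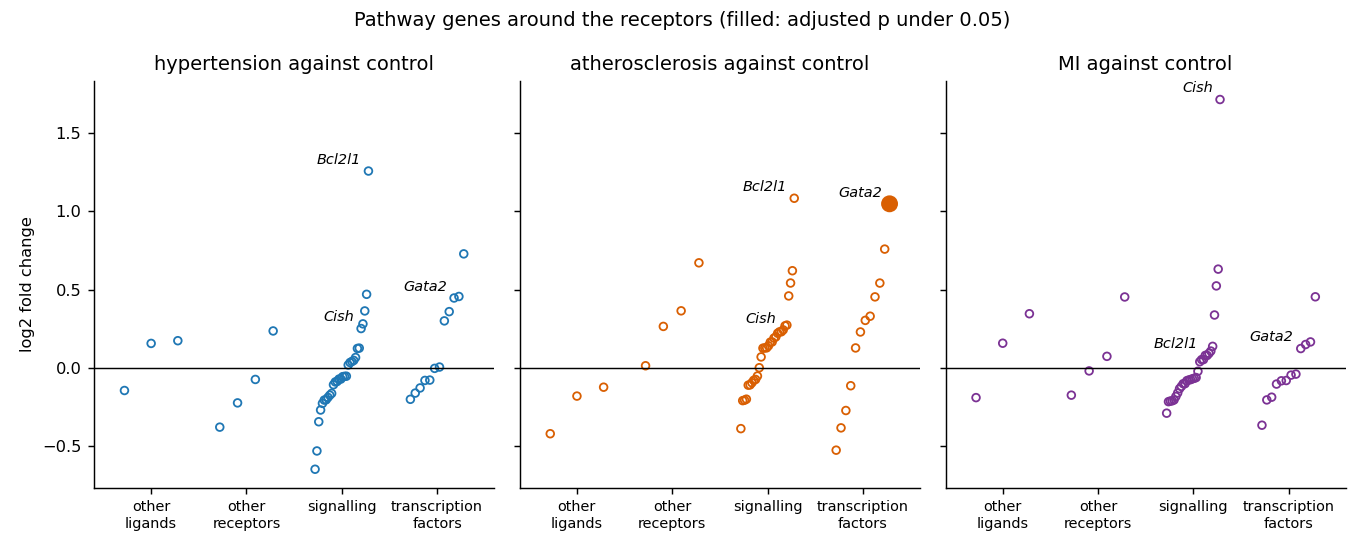
Log2 fold change against the controls (y axis) of the 49 other pathway genes that passed the filter, by list (x axis), in the 3 disease groups, where large filled points mark an adjusted p under 0.05. Gata2 in atherosclerosis is the only filled point, and Bcl2l1 and Cish are labelled as the largest estimates that were not called.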

How the data were processed

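The deposited table holds raw read counts per gene for 12 libraries, made by the authors, who aligned single-end reads to GRCm38.p6 with STAR 2.7.3a and counted reads per gene with its GeneCounts option against an Ensembl annotation. STAR and its version were also named in the submitters' processing notes. Which of STAR's strand columns was deposited is not given in the sources used here. The counts were not normalized and each library came from 1 mouse. The p-values of the main fit rest on a spread between mice that is pooled over all 4 groups, with 8 residual degrees of freedom. That spread is also drawn toward that of other genes, with a median of 5.08 prior degrees of freedom. It is therefore not the spread of only the groups compared. RNA was selected by poly(A) and libraries kept strand. Symbols were matched for 55154 of 55421 gene identifiers, and the 8 genes were matched by symbol.

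Counts were tested with edgeR 4.0.16 in R 4.3.3: filterByExpr by group, TMM factors, quasi-likelihood fit with 1 coefficient per group over all 12 libraries, two-sided tests, Benjamini-Hochberg adjustment over 15999 genes and a threshold of 0.05. The study itself used a likelihood-ratio test of edgeR, run here as an alternative beside DESeq2 1.42.0, other scaling, other filters, fits of only the 2 groups compared, a replicate block and the omission of each library. Fits were tested on simulated data. Levels are CPM with TMM factors, and marker sums are CPM of total counts. Levels per length divide CPM by the merged exon length in GENCODE M21 (GRCm38). Sequences and 50-base stretches come from GENCODE M21 transcripts. Single values were compared by exact permutation tests, adjusted only for the ratios. Shares have Clopper-Pearson intervals at 95%, which cover counting error only. Likeness was Pearson's r of log2(CPM + 0.5).

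The genes named are the 8 members, the 3 genes most like each member, the pathway genes that passed a test, and the pathway ligands and receptors, of which 1 receptor is not reported here by name. Bcl2l1 and Cish were named after their values were seen, as the largest estimates that were not called. The members, the pathway list and the marker lists were chosen with earlier results of these data known. Marker lists were summed for cell types that the sort could hold, and 1 erythroid marker, Ahsp, was not matched.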

Additional observations from a re-analysis of the deposited data

Results flagged for a closer look

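Csf2rb was flagged because all 3 MI libraries lay above the control mean of 93.3 CPM and all 3 hypertension libraries lay below it. The share of all genes tested that meet this rule is not given here, so meeting it is not evidence of a difference. Csf2rb was called in neither group against the controls, at log2 fold changes of 0.18 in MI and -0.14 in hypertension. The log2 difference of MI against hypertension was 0.33 in the same model, with an adjusted p of 0.609 (edgeR's quasi-likelihood test), so the difference did not pass.

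Epor met the same rule in the opposite order, with all 3 hypertension libraries above the control mean of 71.3 CPM and all 3 MI libraries below it. The log2 difference was -0.37, with an adjusted p of 0.621 in the same test. Fitted with only these 2 groups, the adjusted p was 0.387 for Csf2rb and 0.375 for Epor.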

How the results depend on the processing

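None of the 8 genes was called in any of 672 refits, 18 of which reached an unadjusted p under 0.05, and 35 of the refits changed the sign of an estimate, 34 of them by leaving out a library. The other was Csf2ra in MI against control, which moved from -0.01 to 0.0002 with at least 10 counts required in every library. Over the libraries left out in turn, the log2 fold changes that changed sign had these ranges. In hypertension against control Csf1 ran from -0.22 to 0.051, Csf2ra from -0.050 to 0.13, Csf2rb2 from -0.11 to 0.041, Il3ra from -0.52 to 0.43 and Epor from -0.014 to 0.24. In atherosclerosis against control Csf1 ran from -0.14 to 0.48, Csf1r from -0.14 to 0.40, Csf2rb from -0.022 to 0.26, Csf3r from -0.43 to 0.019 and Il3ra from -0.47 to 0.45. In MI against control Csf2ra ran from -0.15 to 0.18, Csf2rb2 from -0.041 to 0.28 and Il3ra from -0.83 to 0.085. In atherosclerosis against hypertension Csf1 ran from -0.021 to 0.60, Csf3r from -0.16 to 0.29, Il3ra from -0.38 to 0.39 and Epor from -0.090 to 0.28. In MI against hypertension Csf1 ran from -0.36 to 0.036, Csf1r from -0.13 to 0.060, Csf2ra from -0.18 to 0.15, Csf2rb2 from -0.0054 to 0.32 and Il3ra from -0.75 to 0.026. In MI against atherosclerosis Csf2rb ran from -0.077 to 0.21 and Csf2rb2 from -0.43 to 0.0051.

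The background count of genes called moved more. Without the filter on low counts it was 170 in hypertension, 432 in atherosclerosis and 130 in MI against control, 235 in atherosclerosis and 422 in MI against hypertension, and 790 in MI against atherosclerosis. In the same order it was 0, 81, 1, 70, 2 and 274 with the likelihood-ratio test and 0, 81, 1, 76, 22 and 311 with DESeq2. With only the 2 groups fitted it was 4 in atherosclerosis and 1 in MI against control, and 3 in MI against atherosclerosis. At an adjusted p under 0.1 it was 19 in atherosclerosis against hypertension and 152 in MI against atherosclerosis, and without immunoglobulin and hemoglobin genes the latter was 66. With 1 library left out it ran from 2 to 34 in atherosclerosis against control, from 3 to 36 in atherosclerosis against hypertension and from 8 to 93 in MI against atherosclerosis, and the cause was not tested.

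Without the filter the pathway genes called were 1 in hypertension, 3 in atherosclerosis and 1 in MI against control, 1 in atherosclerosis and 4 in MI against hypertension, and 5 in MI against atherosclerosis. Gata2 was not called with only the 2 groups fitted, which left 0 in atherosclerosis against control and 0 in MI against atherosclerosis, and with 1 library left out these counts ran from 0 to 1. The sum of stem and progenitor markers in MI minus control was 6.04 CPM and 11.2 CPM on TMM-scaled library sizes. The replicate numbers were not taken as pairs in the main fit. The correlation of same-numbered libraries' deviations ran from -0.34 to 0.34 and was over 0.1 in 6 of 18 pairs. These are deviations from means of 3 libraries and cannot exclude that same-numbered samples were prepared together. With the number as a replicate block, 7 genes were called in atherosclerosis against control and 22 in MI against atherosclerosis, Gata2 in both. Depth limits Il3ra most, with 41 to 185 counts per library, and leaves Csf2, Csf3 and Thpo below the filter.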
